A study of Mus musculus with 5 samples.

Results

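CD73, encoded by *Nt5e*, and the genes that act with it on extracellular adenosine were followed in T helper cells polarized in 5 ways. The genes were taken from a list of 7 symbols: *Nt5e* and *Entpd1* (the ectoenzymes), *Adora2a* and *Adora2b* (the receptors), and *Ada*, *Adk* and *Dpp4* (listed for the clearance of adenosine). A gene was measured where the platform annotation gives a transcript cluster, a group of probes for 1 transcript, that symbol alone. This held for 5 of the 7 genes, each with 1 transcript cluster, out of 22180 genes measured in this way. *Adora2a* and *Adora2b* were not analysed here.

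Each of the 5 conditions has 1 array (Affymetrix Mouse Gene 2.0 ST), so that no difference has a replicate check and no p-value is given. CD4+ CD62L+ naive T cells came from spleens of male and female TRP-1 mice aged 6 to 8 weeks, a strain with a transgenic T cell receptor that also carries a *Rag1* mutation. They were cultured for 3 days with the TRP-1 peptide and with irradiated C57BL/6 spleen cells, freed of T cells, as antigen-presenting cells, and the methods name no sort before the RNA was taken. The Th1 medium held 5 ng/ml of IL-12 and 10 µg/ml of an antibody to IL-4. The Th2 medium and the media of the 3 Th9 cultures held 10 ng/ml of IL-4 and 10 µg/ml of an antibody to IFN-γ. IL-2, at 100 U/ml, was in the Th1 and Th2 media alone. Classic Th9(IL-4+TGF-β) cells also received TGF-β (1 ng/ml) and Th9(IL-4+IL-1β) cells IL-1β (10 ng/ml). The fifth culture, Th9(IL-4+TGF-β+IL-1β), held both and is called combined Th9 here, as the one before it is called IL-1β Th9. The Th2 culture therefore differed from the Th9 cultures in IL-2 as well.

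ATP that leaves a cell is cut to AMP at the cell surface by CD39, encoded by *Entpd1*, and CD73 cuts AMP to adenosine. Adenosine acts on T cells through receptors coupled to cAMP, of which that encoded by *Adora2a* is the best known, and restrains their activation. It is removed by adenosine deaminase (*Ada*), which in humans is held at the cell surface by CD26 (*Dpp4*), and by adenosine kinase (*Adk*), which turns it back into AMP inside the cell. Regulatory T cells of the mouse carry both CD39 and CD73, and TGF-β is known to raise CD73 on T cells.

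The promoters of the genes whose levels moved most are shown first, since TGF-β acts on genes through SMAD proteins, which bind the letters CAGAC. The windows run from 250 bases before a transcription start to 50 bases after it, come from RefSeq (GRCm38.p6) and are printed in the direction of transcription, with CAGAC or its reverse complement GTCTG in capitals. All 5 measured genes had an entry, *Entpd1* and *Adk* with 2 starts each. *Nt5e* lies on the plus strand, with its window at chr9:88327359-88327658. The 2 windows of *Entpd1*, also on the plus strand, are at chr19:40612116-40612415 and chr19:40659520-40659819.
Nt5e: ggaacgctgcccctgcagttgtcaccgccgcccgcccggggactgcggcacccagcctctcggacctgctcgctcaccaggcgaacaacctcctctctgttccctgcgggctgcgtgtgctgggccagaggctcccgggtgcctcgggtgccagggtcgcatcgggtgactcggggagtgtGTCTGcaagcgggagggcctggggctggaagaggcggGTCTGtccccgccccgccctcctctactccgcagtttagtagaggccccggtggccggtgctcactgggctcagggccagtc
Entpd1 start 1: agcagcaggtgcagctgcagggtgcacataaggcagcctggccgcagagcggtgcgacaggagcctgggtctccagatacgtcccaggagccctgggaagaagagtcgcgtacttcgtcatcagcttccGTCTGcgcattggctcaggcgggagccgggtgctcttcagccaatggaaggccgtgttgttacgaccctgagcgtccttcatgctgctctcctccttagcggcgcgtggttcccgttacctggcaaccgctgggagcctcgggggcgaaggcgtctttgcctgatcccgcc
Entpd1 start 2: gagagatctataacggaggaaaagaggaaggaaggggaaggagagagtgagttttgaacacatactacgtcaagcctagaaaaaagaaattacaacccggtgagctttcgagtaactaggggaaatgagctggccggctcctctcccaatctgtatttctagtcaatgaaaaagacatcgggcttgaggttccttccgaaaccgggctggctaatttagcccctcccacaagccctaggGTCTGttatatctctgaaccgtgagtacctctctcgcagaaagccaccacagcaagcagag

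CAGAC was present 2 times in the *Nt5e* window, with its first base 69 and 32 bases before the start, 1 time in each *Entpd1* window, 2 times each in those of *Ada* and *Dpp4*, and in neither window of *Adk*. Of 32851 mouse promoters of the same length, 49.6% held it at least 1 time and 16.2% at least 2 times, on either strand. The GC box GGGCGG was found 4 times in the *Nt5e* window, which was 71% G and C. It was also found 4 times in each *Adk* window and 2 times in that of *Ada*. Of all promoters 35.7% held it at least 1 time and 19.5% at least 2 times. TGACG is the core of the element bound by proteins of the cAMP response. It was found 1 time in each *Entpd1* window and in the first *Adk* window, and not in that of *Nt5e* (20.8% of all promoters). A site of the STAT6 type, TTC and GAA with 4 bases between them, was in no window of the 5 genes (6.95% of all promoters). None of these letters overlapped a CAGAC. A match is a description of the letters and not a binding site.

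*Nt5e* (transcript cluster 17520073) was the gene of the pathway that differed most. Its log2 value was 9.05 in classic Th9 cells, 7.57 in combined Th9 cells, 7.03 in Th1 cells, 6.74 in Th2 cells and 6.50 in IL-1β Th9 cells. The classic Th9 array stood alone at the top, 1.48 above the next, and IL-1β Th9 cells were the lowest. All 5 values were above the dim signal of the arrays, taken as the 95th percentile of 1105 olfactory receptor genes, which lay between 5.33 and 5.39. The span from highest to lowest array was 2.55 (5.86-fold), and 81 of the 22180 genes (0.365%) had a span as wide. The SD of the olfactory receptor genes' differences, between 0.25 and 0.30 in the 6 comparisons made, served as a measure of scatter in dim signals and is not a replicate error. By this measure the 2 lowest arrays of *Nt5e*, 0.24 apart, did not differ beyond the scatter, and the step from Th2 to Th1 cells, at 0.30, was close to it.

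*Entpd1* (transcript cluster 17359344), which encodes CD39, did not follow *Nt5e*. Its log2 value was 7.57 in Th1 cells, 7.37 in Th2 cells, 7.25 in both classic Th9 and IL-1β Th9 cells and 6.51 in combined Th9 cells. Only the last of these stood apart, 0.74 below the next lowest, while the steps between the other 4 arrays were at most 0.21. The span of 1.07 (764 genes, 3.44%, had one as wide) thus rested on the culture that held both cytokines.

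*Ada*, *Adk* and *Dpp4*, listed for the clearance of adenosine, had narrower spans than *Nt5e* and *Entpd1*. The log2 values of *Adk* (transcript cluster 17297576) were 8.79 in Th1, 9.35 in Th2, 9.59 in classic Th9, 9.39 in IL-1β Th9 and 9.34 in combined Th9 cells. It was lowest in Th1 cells, by 0.55 against the next, and its span of 0.79, from Th1 to classic Th9 cells, was reached by 7.16% of all genes. *Ada* (17394063) was at 8.56, 8.11, 8.12, 8.21 and 8.13 in the same order. It was highest in Th1 cells, by 0.36, with the other 4 arrays within 0.10 of each other, and 28.7% of all genes had a span as wide as its 0.46. *Dpp4* (17385719) was between 8.75 and 8.94, and 83.0% of all genes had a span as wide as its 0.19.

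**Figure D1:**
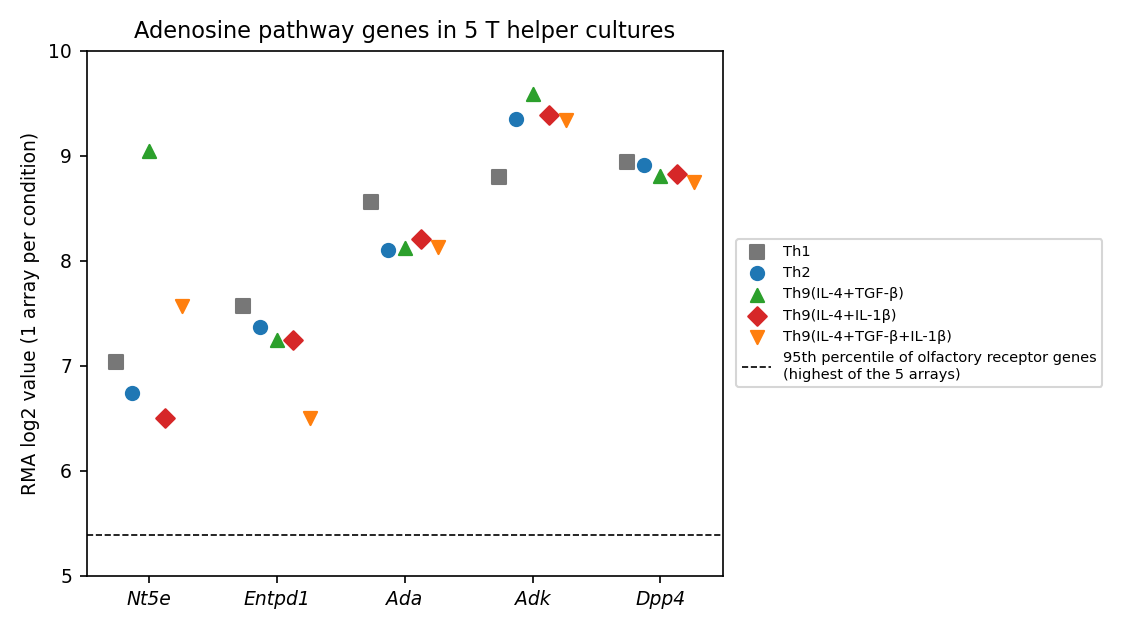
RMA log2 value (vertical axis) of each measured gene of the pathway in the 5 cultures, 1 point per array, with the highest 95th percentile of the olfactory receptor genes as a dashed line. *Nt5e* reached 9.05 in classic Th9 cells against 6.50 to 7.57 in the others, and *Entpd1* was at 6.51 in combined Th9 cells against 7.25 to 7.57.

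The first comparison set IL-1β Th9 cells against classic Th9 cells, the pair in which TGF-β was replaced by IL-1β. *Nt5e* was 5.86-fold lower in IL-1β Th9 cells, a log2 difference of -2.55 from 9.05 to 6.50. This was the 3rd lowest difference among the 22180 genes, and 0.0766% of them differed by as much in either direction. At a threshold of 1.5-fold in either direction, *Nt5e* was the 1 gene of 5 that passed, where 5.04% of all genes did. The log2 differences of the other members were -0.00 (*Entpd1*), 0.09 (*Ada*), -0.20 (*Adk*) and 0.02 (*Dpp4*), each within the SD of the olfactory receptor genes, 0.30.

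TGF-β was compared with no TGF-β in 2 pairs of arrays that have no array in common. Without IL-1β, *Nt5e* was 4.96-fold higher with TGF-β, a log2 difference of 2.31 between classic Th9 and Th2 cells (which had IL-2 as well), the 2nd highest of all genes. With IL-1β it was 2.10-fold higher, a difference of 1.07 between combined Th9 and IL-1β Th9 cells, the 16th highest of all genes. *Nt5e* was thus higher with TGF-β in both pairs. It was the only member past 1.5-fold in the first pair, where 3.05% of all genes passed. *Entpd1* went the other way, with -0.12 in the first pair and -0.74 (1.67-fold lower, the 207th lowest of all genes) in the second, where 1 member was higher, 1 was lower and 3% of all genes passed. The remaining members lay between -0.11 and 0.23 in both pairs.

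IL-1β was likewise compared in 2 pairs with no array in common. Without TGF-β, between IL-1β Th9 and Th2 cells, no member passed 1.5-fold (2.39% of all genes did), and *Nt5e* had a difference of -0.24. With TGF-β, between combined Th9 and classic Th9 cells, *Nt5e* was 2.79-fold lower (-1.48, the 3rd lowest of all genes) and *Entpd1* was 1.67-fold lower (-0.74, the 98th lowest). These 2 of 5 members compare with 1.96% of all genes past 1.5-fold in this pair. *Ada*, *Adk* and *Dpp4* had differences of 0.02, -0.24 and -0.05.

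The difference with IL-1β in the presence of TGF-β minus that in its absence was -1.24 for *Nt5e*, the 21st lowest of all genes (0.144% as large), and -0.62 for *Entpd1* (4.97% as large). The SD of this quantity in the olfactory receptor genes was 0.41. It was -0.08 for *Ada*, -0.28 for *Adk* and 0.03 for *Dpp4*. The quantity uses all 4 arrays with IL-4 and is the same when TGF-β and IL-1β change places. The Th2 array is 1 of them, so the difference in IL-2 is part of the quantity as well. The 3 largest differences of *Nt5e* (-2.55, 2.31 and -1.48) all rest on the classic Th9 array, which the difference of 1.07 does not use. Both differences of *Entpd1* past 1.5-fold rest on the combined Th9 array.

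Th1 cells were compared with Th2 cells as the cultures without either cytokine. No member passed 1.5-fold, against 5.84% of all genes. *Adk* came closest, at -0.56 (1.47-fold lower in Th1 cells), followed by *Ada* at 0.46 (1.37-fold higher). *Nt5e* had a difference of 0.30, *Entpd1* of 0.21 and *Dpp4* of 0.03.

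At the stricter threshold of 2-fold, *Nt5e* was the only member that passed, in 4 of the 6 comparisons. In the order given above, 0.983%, 0.491%, 0.397%, 0.248%, 0.239% and 2.04% of all genes passed it, and *Nt5e* did so in all but the fourth and the last. Its 1.07 in the third fell below 2-fold relative to the T cell genes, at 0.87, and with log2(linear value + 16), at 0.95.

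**Figure D2:**
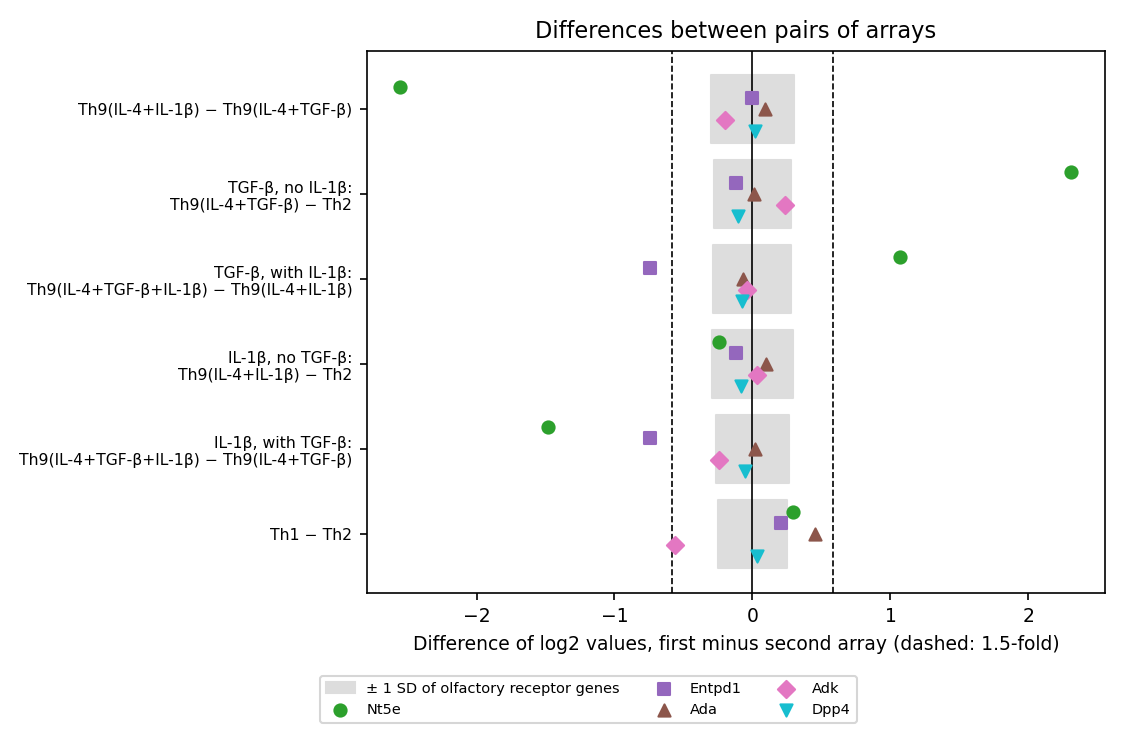
Difference of log2 values (horizontal axis, first minus second array) for each measured gene of the pathway in the 6 comparisons, with dashed lines at 1.5-fold and grey boxes at 1 SD of the olfactory receptor genes on either side of 0. *Nt5e* is past a line in 4 comparisons and *Entpd1* in 2, and *Ada*, *Adk* and *Dpp4* are past none.

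Marker genes of other cells than T cells were above the dim signal, and some differed between the cultures. All 13 T cell identity genes measured of 16 listed, such as *Cd3e* and *Cd4*, were above the dim signal in every array, as were at least 10 of the 11 measured B cell genes (of 12), such as *Cd79a* and *Ms4a1*. The log2 of the summed level ranged over the 5 arrays from 14.51 to 14.88 for the T cell genes, from 13.58 to 14.15 for the B cell genes and from 10.73 to 12.23 for 6 plasma cell genes. For 13 monocyte, macrophage and dendritic cell genes it ranged from 9.86 to 10.63, and 8 or 9 of them were above the dim signal. The median of all transcript clusters, 5.41 to 5.44 in the 5 arrays, was itself above the dim signal. Such counts alone therefore do not show that these cells were present. Fewer cells of a type and less RNA per cell cannot be told apart in such samples. In the TGF-β pair without IL-1β, where *Nt5e* was 2.31 higher, the median difference was 0.22 for the T cell genes, -0.60 for the B cell genes and -0.99 for the plasma cell genes. In the pair with IL-1β the medians were 0.19, -0.29 and -1.04, and between IL-1β Th9 and classic Th9 cells they were -0.43, 0.53 and 1.24. The T cell genes thus shifted in the direction of *Nt5e*, by less, and the B cell and plasma cell genes against it. The monocyte, macrophage and dendritic cell medians were -0.14, -0.15 and 0.16 in the same order. Between IL-1β Th9 and classic Th9 cells 3 of these 13 genes were higher past 1.5-fold and 1 was lower, *Lyz2* at -1.44. Of all genes 2.69% were higher and 2.34% lower there. Relative to the mean of the T cell genes, *Nt5e* had differences of -2.23 between IL-1β Th9 and classic Th9 cells, 2.14 and 0.87 with TGF-β, and -1.36 with IL-1β in the presence of TGF-β. *Entpd1* had -0.94 and -0.62 in its 2 comparisons on this scale, and *Adk* in Th1 cells reached -0.64, past 1.5-fold, where 4.21% of all genes were lower. For the low *Entpd1* of the culture with both cytokines, the B cell median was 0.18 higher, and the T cell median 0.15 lower, than in classic Th9 cells, with plasma cell and mast cell and basophil medians of 0.29 and -0.06. Against IL-1β Th9 cells the medians beside it were -0.29 for the B cell genes and -1.04 for the plasma cell genes. They were -0.42 for the mast cell and basophil genes and 0.19 for the T cell genes. Those of the monocyte, macrophage and dendritic cell genes were 0.20 against classic Th9 cells and -0.15 against IL-1β Th9 cells. The part of the other cells in these values was not tested.

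The ectoenzymes, CD39 and CD73 among them, were represented by 8 measured genes of 13 listed. *Alpl*, the tissue-nonspecific alkaline phosphatase, which also removes phosphate from AMP outside the cell, ran opposite to *Nt5e*. It had a log2 value of 9.63 in IL-1β Th9, 9.45 in Th2, 8.27 in combined Th9, 7.84 in Th1 and 7.49 in classic Th9 cells. The 2 cultures with IL-4 and no TGF-β were the highest. The log2 difference with TGF-β was -1.95 without IL-1β and -1.36 with it, and *Alpl* was 2.14 higher in IL-1β Th9 than in classic Th9 cells. Of the 6 plasma cell genes measured, 5 had the same 2 cultures at the top, all but *Tnfrsf17*. The share of all genes with this order was not counted. The margins varied, and IL-1β Th9 cells were above classic Th9 cells by only 0.22 for *Xbp1* and 0.30 for *Sdc1*, and by 2.05 for *Derl3*. *Jchain*, the joining chain of secreted antibody, was at 9.63 in IL-1β Th9 and 9.30 in Th2 cells against 4.68 in classic Th9 cells, and *Mzb1* at 10.52 and 10.28 against 8.07. Whether the *Alpl* signal came from such cells was not tested. *Acpp*, an acid phosphatase that acts as an ectonucleotidase in mouse sensory neurons, was between 6.91 and 7.76 and within 1.5-fold in all 6 comparisons.

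**Figure D3:**
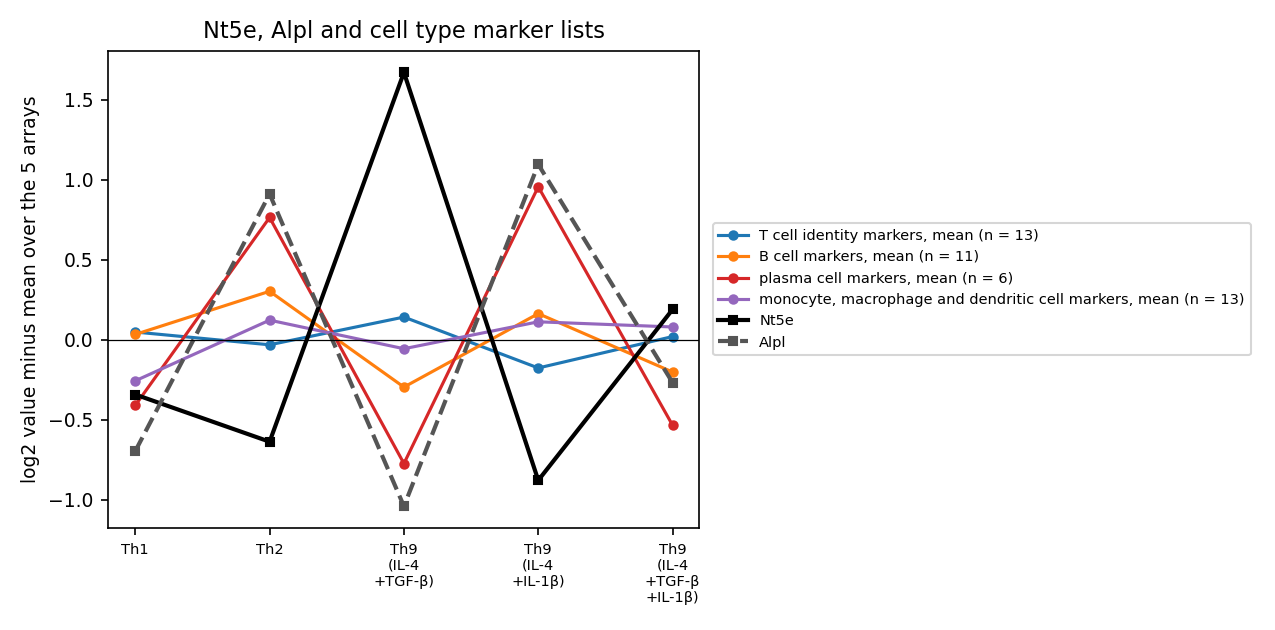
Log2 value minus the mean over the 5 arrays (vertical axis) for *Nt5e*, *Alpl* and the mean of 4 cell type marker lists in the 5 cultures. *Nt5e* was highest in classic Th9 cells, where *Alpl* and the plasma cell mean were lowest.

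The genes listed for nucleoside transport and adenosine metabolism stayed within 1.5-fold between the IL-4 cultures on the deposited scale. Among the 7 nucleoside transporters measured, none passed in the 5 comparisons of IL-4 cultures on the deposited scale. Relative to the T cell genes *Slc29a2* (ENT2), an equilibrative transporter, was higher in IL-1β Th9 than in classic Th9 cells. This was 1 of 7, where 12.5% of all genes were higher on that scale. *Slc29a2* was 0.95 higher in Th1 than in Th2 cells (8.38 against 7.43). Of 21 measured genes of adenosine metabolism (of 26 listed, with *Ada*, *Adk* and *Dpp4* among them), again none passed in the IL-4 cultures, on the deposited scale or relative to the T cell genes. Their median differences lay between -0.01 and 0.03 in these comparisons, and those of all genes between -0.03 and 0.02. In Th1 against Th2 cells 1 was lower, *Ahcyl2*, a relative of the enzyme that splits S-adenosylhomocysteine, at -0.65. *Adora3*, the only measured adenosine receptor of 4 listed, was between 5.01 and 5.20 and under the dim signal in every array.

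Receptors for ATP and related nucleotides differed mostly in Th1 cells. All 17 listed P2 receptors and ATP release genes were measured, and 4 were higher and 3 lower than in Th2 cells, where 2.55% of all genes were higher and 3.29% lower. *P2rx3*, an ATP-gated channel known from sensory neurons, was at 8.37 in Th1 cells and from 5.52 to 5.83 in the remaining 4. *P2rx7*, an ATP-gated channel of T cells, was at 9.03 against 7.81 to 7.99, and *P2ry14*, the receptor for UDP-glucose, at 8.69 against 6.79 to 7.28. *P2ry1*, an ADP receptor, was lower in Th1 cells, at 5.68 against 8.23 to 8.72. In all 4 the Th1 value lay outside the range of the remaining arrays, as it did for 48.5% of all genes. Between Th1 and Th2 cells the median difference was -0.00 for the T cell genes, -0.44 for the B cell genes and -1.32 for the plasma cell genes. It was -0.92 for the NK cell genes (3 of 4 lower), -0.12 for the monocyte, macrophage and dendritic cell genes (5 of 13 lower and 2 higher) and -0.03 for the mast cell and basophil genes. The part of these cells in the P2 values was not tested. In the comparisons of IL-4 cultures on the deposited scale only *P2ry12*, another ADP receptor, passed 1.5-fold. It was at 6.64 in IL-1β Th9, 6.30 in combined Th9, 6.14 in Th2 and 5.66 in classic Th9 cells. IL-1β Th9 cells were 0.98 above classic Th9 cells. Relative to the T cell genes, a scale on which the median of all genes is 0.29 higher in IL-1β Th9 than in classic Th9 cells, 6 of the 17 genes passed in this pair, all of them higher, with a list median of 0.38. On that scale 12.5% of all genes were higher and 0.523% lower.

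Over all 54 measured genes of these purine lists (of 67), 3 (5.56%) were past 1.5-fold between IL-1β Th9 and classic Th9 cells. These were *Nt5e*, which was lower, and *Alpl* and *P2ry12*. With TGF-β the count was 2 (3.70%) without IL-1β and 3 (5.56%) with it, and *Nt5e*, *Alpl* and *Entpd1* were the only genes among them. With IL-1β it was 0 of 54 without TGF-β and 4 (7.41%) with it, namely *Alpl* and *P2ry12*, which were higher, and *Nt5e* and *Entpd1*. In Th1 against Th2 cells 10 genes passed (18.5%), 5 in each direction. In the same order, 5.04%, 3.05%, 3%, 2.39%, 1.96% and 5.84% of all genes passed. The list shares of the first 2 comparisons, 5.56% and 3.70%, were thus close to those of all genes.

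**Figure D4:**
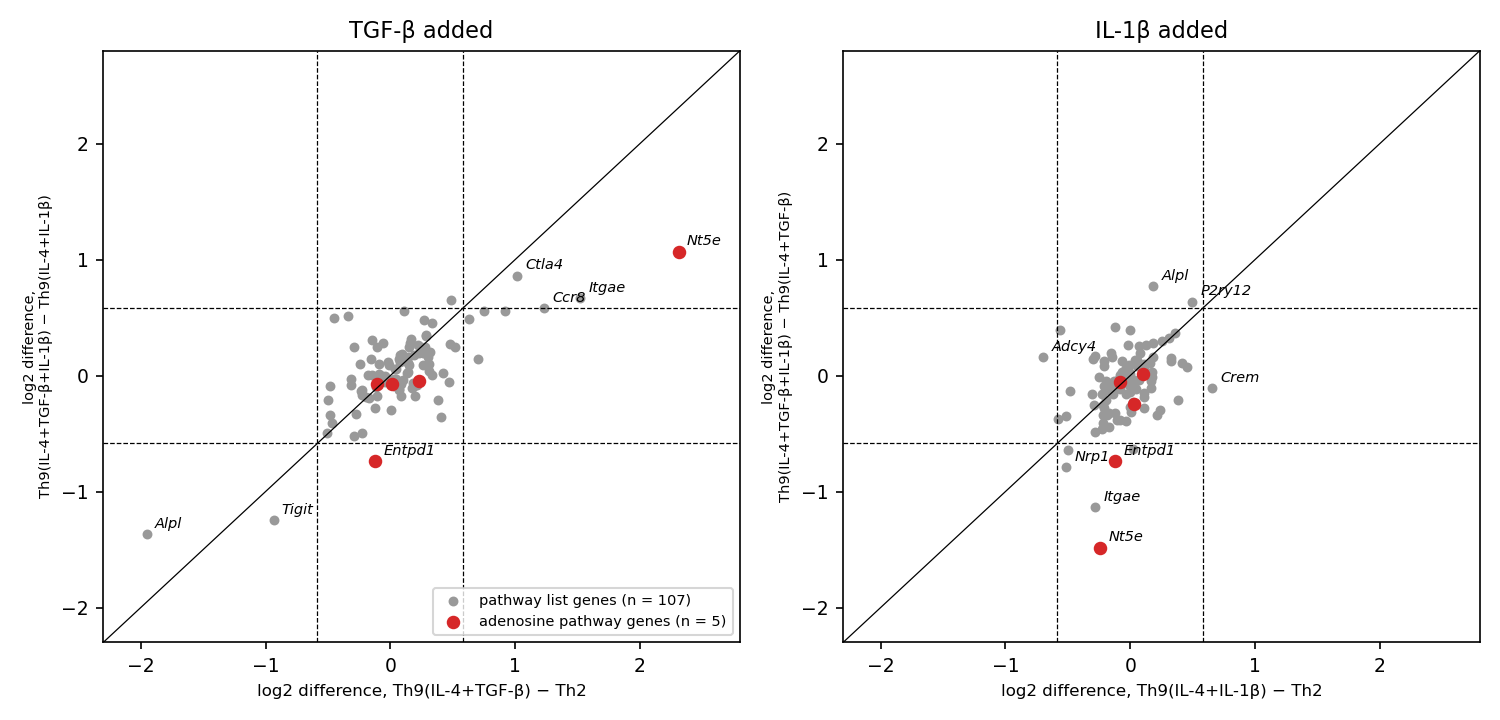
Log2 differences of 107 measured pathway list genes with TGF-β (left) and with IL-1β (right), each without (horizontal axis) and with (vertical axis) the other cytokine. The 2 axes of a panel share no array, dashed lines mark 1.5-fold and the diagonal marks equal differences. *Nt5e* lies at 2.31 and 1.07 on the left and at -0.24 and -1.48 on the right.

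Downstream of the receptors, 20 of 23 listed genes of cAMP signalling were measured. *Pde8a*, a phosphodiesterase that breaks down cAMP, was the only one past 1.5-fold between IL-1β Th9 and classic Th9 cells, at 7.86 against 6.99, which is 1 of 20 where 5.04% of all genes passed. Relative to the T cell genes *Prkar2a*, a regulatory subunit of the cAMP-dependent kinase, passed as well, where 12.5% of all genes were higher. Between IL-1β Th9 and Th2 cells, *Crem*, a transcription factor of the cAMP response, was 0.65 higher (6.67 against 6.02). *Adcy4*, an adenylate cyclase, had a difference of -0.70, at 4.58 against 5.28 and thus under the dim signal in both arrays. No gene of the list passed 1.5-fold in either TGF-β pair. Relative to the T cell genes *Pde8a* was past it, lower with TGF-β, in both, where 4.28% and 5.20% of all genes were lower.

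Factors known to control CD73 or CD39 were measured as 8 genes, *Gfi1*, *Stat3*, *Smad2*, *Smad3*, *Smad4*, *Hif1a*, *Sp1* and *Ahr*. None was past 1.5-fold in the 5 comparisons of IL-4 cultures on the deposited scale. Relative to the T cell genes *Smad3* was higher in IL-1β Th9 than in classic Th9 cells, where 12.5% of all genes were. On that scale it was lower in classic Th9 than in Th2 cells, where 4.28% of all genes were. The largest TGF-β differences without IL-1β were 0.52 for *Ahr*, the aryl hydrocarbon receptor, at 8.98 against 8.46, and -0.50 for *Smad3*, a signal carrier of the TGF-β receptor, at 7.70 against 8.20. In Th1 against Th2 cells *Hif1a* was 0.87 higher, and *Smad3* and *Ahr* had differences of -0.87 and -1.02.

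Genes known to answer to TGF-β in T cells were measured in full (14 of 14). Without IL-1β, 6 were higher with TGF-β and none lower, with a median difference of 0.48 against 0.02 over all genes, of which 1.28% were higher. With IL-1β, 2 were higher and none lower, with a median of 0.26 against 0.01 over all genes, of which 1.21% were higher. Relative to the T cell genes these counts became 3 higher without IL-1β (0.487% of all genes), and 0 higher and 1 lower with it (0.275% and 5.20% of all genes), with medians of 0.31 and 0.06 where those of all genes were -0.15 and -0.18. *Itgae*, the CD103 integrin chain, was at 8.40 in classic Th9 cells, 7.27 in combined Th9, 6.88 in Th2, 6.60 in IL-1β Th9 and 5.52 in Th1 cells. Its TGF-β differences were 1.52 and 0.67, and its difference with IL-1β was -0.28 without TGF-β and -1.13 with it. *Foxp3*, the transcription factor of regulatory T cells, was at 8.78 in classic Th9 cells, 8.39 in combined Th9 cells and 7.83 to 8.06 in the other arrays. *Ctla4*, an inhibitory receptor, was at 9.77 in classic Th9 cells and at 9.43 in combined Th9 cells, with the other 3 arrays from 8.57 to 8.92. *Ccr8*, a chemokine receptor, was at 10.77 in classic Th9, 10.14 in combined Th9, 9.56 in IL-1β Th9, 9.54 in Th2 and 6.95 in Th1 cells. *Itgae*, *Foxp3* and *Ccr8* were among 7 of the 14 genes with their 2 highest values in the 2 cultures with TGF-β, as *Nt5e* had, where 12.2% of all genes did. *Cd9*, a tetraspanin of the same list, had its 2 lowest values there, with TGF-β differences of -0.30 and -0.52. Others of the list stayed within 1.5-fold in both pairs. Their TGF-β differences without and with IL-1β were 0.18 and -0.07 for *Smad7* and 0.09 and 0.17 for *Skil*. They were 0.14 and 0.02 for *Ski* and 0.29 and 0.09 for *Pmepa1*. The list was chosen with earlier results of these data known. *Tigit*, another inhibitory receptor, had its 2 lowest values in the cultures with TGF-β, at 7.27 and 7.38 against 7.60 to 8.62. *Ctla4* and *Tigit* belong to a list of 15 genes of regulatory, anergic or naive T cells, of which 12 were measured and 4 had their 2 highest values with TGF-β. *Foxp3* is in both lists and is counted in each. In the list of 15, 2 genes were higher and 1 was lower with TGF-β without IL-1β (1.28% and 1.77% of all genes). With IL-1β, 1 was higher and 1 lower (1.21% and 1.79% of all genes). Relative to the T cell genes, *Nrp1* joined those lower in the presence of IL-1β, where 5.20% of all genes were lower. *Izumo1r*, which encodes a folate receptor family protein of regulatory T cells, had the list's largest difference between Th1 and Th2 cells, -2.77, at 6.96 against 9.73.

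The 5 genes whose pattern over the 5 arrays lay nearest to that of *Nt5e* were *Aqp3*, *Npas2*, *Nipal1*, *Gpr55* and *Galm*. Nearness was the root mean square difference of log2 values, each less its own mean, among 19245 genes. *Aqp3*, a channel for water and glycerol, was at 0.21 from *Nt5e*, with 8.74 in classic Th9 cells, 7.59 in combined Th9 cells and 5.88 in IL-1β Th9 cells. *Npas2*, a transcription factor related to the clock gene *Clock*, was at 0.26, with 8.27, 7.23 and 5.93 in the same cultures. *Nipal1*, a magnesium transporter, *Gpr55*, a receptor for lysophosphatidylinositol, and *Galm*, a sugar mutarotase, followed at 0.31, 0.35 and 0.35. All 5 were highest in classic Th9 cells. As a description over 5 arrays, the correlation with *Nt5e* was 0.98 for *Aqp3* and between 0.92 and 0.99 for the others. The genes were picked from these same data for nearness to *Nt5e*, so the shared peak and the correlations follow from the choice.

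With TGF-β, *Aqp3* had differences of 2.36 without IL-1β and 1.71 with it, and *Npas2* of 1.61 and 1.30, so their promoter windows are set beside that of *Nt5e*. That of *Aqp3* is at chr4:41098134-41098433 on the minus strand and that of *Npas2* at chr1:39194022-39194321 on the plus strand, in the same build and with the same letters in capitals as above.
Aqp3: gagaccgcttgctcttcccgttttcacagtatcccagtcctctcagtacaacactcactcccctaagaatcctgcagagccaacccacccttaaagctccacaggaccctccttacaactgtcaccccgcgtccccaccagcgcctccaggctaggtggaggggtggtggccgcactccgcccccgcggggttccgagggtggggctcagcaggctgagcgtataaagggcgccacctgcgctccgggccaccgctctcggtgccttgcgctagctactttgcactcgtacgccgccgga
Npas2: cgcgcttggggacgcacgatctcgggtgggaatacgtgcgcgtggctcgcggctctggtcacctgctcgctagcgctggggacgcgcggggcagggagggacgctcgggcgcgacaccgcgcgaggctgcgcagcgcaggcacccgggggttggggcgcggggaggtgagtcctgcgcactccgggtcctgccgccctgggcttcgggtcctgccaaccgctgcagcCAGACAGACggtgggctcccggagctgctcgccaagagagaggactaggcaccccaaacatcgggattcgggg

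CAGAC was absent from the *Aqp3* window and present 2 times in that of *Npas2*, 23 and 19 bases before the start, where the copies share a base. It was present 1 time each in the windows of *Nipal1* and *Gpr55*. The windows of *Nt5e* and of these 4 genes thus held between 0 and 2 copies, as did the windows of *Ada*, *Adk* and *Dpp4*, whose differences with TGF-β were at most 0.23.

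The pattern of *Entpd1* was less distinct. Its nearest genes were *Vmn2r95*, *Car5b*, *Lepr*, *Parp8* and *Cyp2d13*, at 0.12 to 0.14, and 224 genes lay within double the distance of the nearest, against 8 for *Nt5e*. *Vmn2r95*, *Lepr* and *Cyp2d13* were at 2.92, 2.93 and 3.97 in combined Th9 cells, under the dim signal. *Car5b*, a mitochondrial carbonic anhydrase, was at 6.48 there and at 7.03 in classic Th9 cells.

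**Figure D5:**
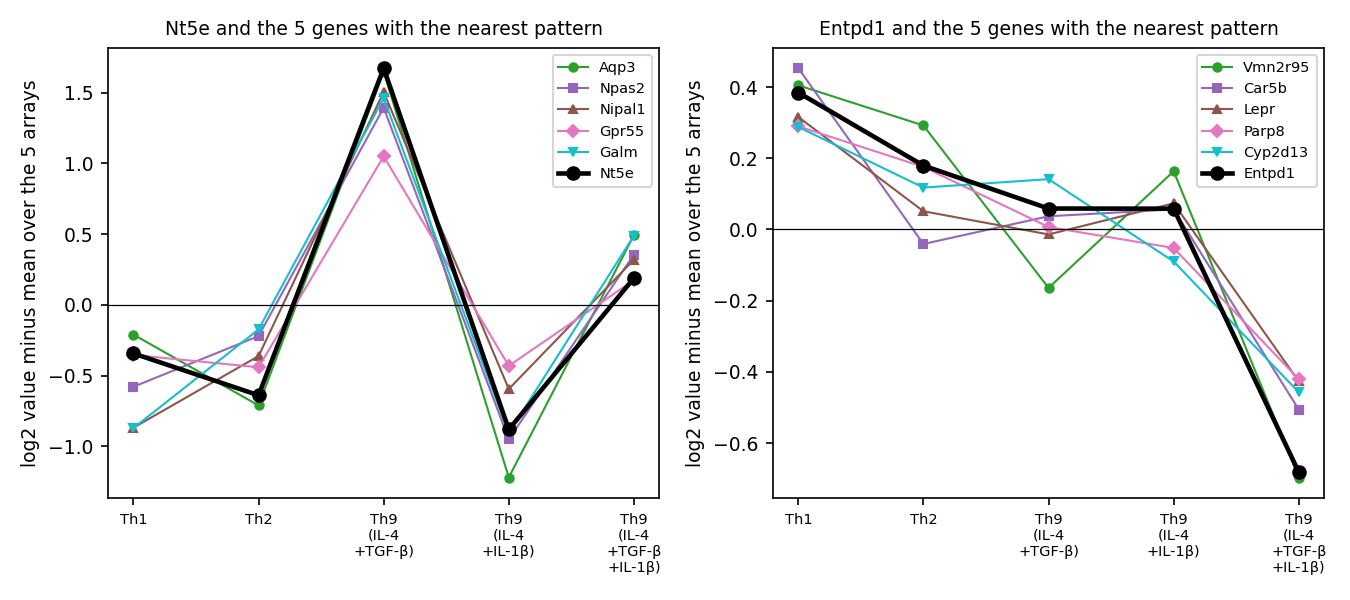
Log2 value minus the mean over the 5 arrays (vertical axis) for *Nt5e* (left) and *Entpd1* (right), in black, with the 5 genes nearest to each. The genes near *Nt5e* all peak in classic Th9 cells, and those near *Entpd1* are all lowest in combined Th9 cells on a narrower scale. Both sets were picked from these data for this nearness.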

How the data were processed

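RNA (RNeasy Mini Kit) was measured on 5 arrays, 1 per condition. The authors summarized probes by RMA in Affymetrix Expression Console and deposited log2 values, which were used as they are. RMA corrects background and normalizes arrays together, so differences are relative to the whole array. Program versions were not given in the sources used here. Of 41345 transcript clusters, 23521 carry 1 symbol and 1820 several. A gene was represented by its cluster with the highest mean. Differences, ranks and counts past 1.5-fold (0.58 on the log2 scale) were computed with no test; precision is limited by the number of arrays. Genes named were the members, the 2 to 4 list genes with the largest differences, defining markers of other cell types, and, for members spanning at least 2-fold, the 5 nearest patterns without gene models. Some further list genes, such as *Foxp3*, *Acpp*, *Adora3*, *Cd9*, *Smad7*, *Skil*, *Ski*, *Pmepa1*, *Nrp1* and *Prkar2a*, and the markers were named after their values were seen. The members and lists were chosen with earlier results of these data known. Alternatives were 4 other array scalings, log2(linear value + 16), the mean over clusters, 2-fold, dim-signal filters and all transcript clusters. The code was tested on simulated data. Python 3.11.15, numpy 2.4.6, pandas 2.3.3 and matplotlib 3.10.9 were used. Raw intensities were not used here.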

Additional observations from a re-analysis of the deposited data

Results flagged for a closer look

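*Ada* under TGF-β, and *Adk* under TGF-β and under IL-1β, each had log2 differences of opposite sign without and with the other cytokine. With TGF-β, *Ada* had a difference of 0.01 without IL-1β and -0.07 with it, which is a change of -0.083. *Adk* had 0.23 and -0.04 with TGF-β, and 0.03 and -0.24 with IL-1β in the absence and presence of TGF-β, a change of -0.28 in both views, which use the same 4 arrays. The difference between the pairs was not tested, since each condition has 1 array, and each single value was smaller than the SD of the olfactory receptor genes, 0.27 to 0.29. No condition has the 4 arrays that a check for outlying samples would need.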

How the results depend on the processing

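No difference of a member that was past 1.5-fold changed its direction or its side of the threshold under any of the 6 other scalings and summaries. The mean over transcript clusters, 1 of the 6, could not change a member, since each member has 1 cluster. *Nt5e* ranged from -2.63 to -2.23 between IL-1β Th9 and classic Th9 cells, from 2.14 to 2.32 and 0.87 to 1.15 with TGF-β, and from -1.49 to -1.36 with IL-1β in the presence of TGF-β. *Entpd1* ranged from -0.94 to -0.65 and from -0.75 to -0.62 in its 2 comparisons. The value of -2.23 came from centring on the T cell identity genes, which also moved *Entpd1*, *Ada*, *Adk* and *Dpp4* to 0.32, 0.41, 0.12 and 0.34 in that comparison and took *Adk* in Th1 cells past the threshold. It shifts the median of all genes by 0.32, -0.17, -0.20, 0.15, 0.12 and -0.08 in the 6 comparisons, in the order in which they were described, and differences on this scale are to be read against that shift. The numbers of genes past 1.5-fold were 1117, 676, 665, 530, 435 and 1296 in that order. Under T cell centring the first 3 became 2878 (96.0% higher), 1057 (10.2%) and 1214 (5.02%), against 53.4%, 42.0% and 40.5% as deposited, and the shares higher in the last 3 were 90%, 78.7% and 31.3% against 52.5%, 43.9% and 43.7%. Centring on the 75th percentile gave 34.4%, 64.3% and 31.6% higher in the first, the third and the fourth, and a second quantile normalization 39.1% in the fourth. With log2(linear value + 16) the first 5 became 601, 323, 265, 136 and 159, and among genes above the median 718, 420, 348, 193 and 211. At 2-fold the 6 counts were 218, 109, 88, 55, 53 and 453, and over all transcript clusters 4087, 2690, 3265, 3123, 2120 and 3384. Of the 107 pathway list genes, 14, 10, 7, 2, 8 and 25 passed 1.5-fold, and 7, 5, 3, 0, 2 and 13 passed 2-fold. Leaving out list genes in the dim signal left 1 in the fourth comparison. No paired analysis was possible because each condition has 1 array and the comparisons come from no test. Every value is limited in precision by the 1 array per condition.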
